A study of Mus musculus with 24 samples.

Results

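Matrix metalloproteinases (Mmp), ADAM proteases with their ADAMTS and ADAMTS-like relatives, and tissue inhibitors of metalloproteinases (Timp) were examined in livers of E12.5 mouse embryos. The members were chosen by name. Of the 25361 genes in the expression table, 85 carry a name of these families, and 48 of them reached 1 TPM, the unit that scales each library to a sum of 1000000, in at least 3 of the 24 libraries. All 48 entered the test in CD146+ liver sinusoidal endothelial cells (LSECs), and 23 had enough signal to enter the test in the remaining liver cells (non-EC).

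The study asked what the loss of the chromatin remodelers CHD4 and BRG1 from endothelial cells changes in the embryonic liver before it fails. Each of 4 genotypes gave 3 LSEC and 3 non-EC libraries. Chd4-ECko embryos were Chd4 fl/fl, Brg1 fl/+ and VE-cadherin-Cre+, so that they also had a single floxed Brg1 allele. Brg1-ECko embryos were Brg1 fl/fl, Chd4 fl/+ and VE-cadherin-Cre+. Brg1/Chd4-ECdko embryos were fl/fl for both genes and VE-cadherin-Cre+. Controls were littermates without Cre that carried floxed alleles from the same cross. The VE-cadherin promoter drives Cre in endothelial cells, and blood cells that descend from hemogenic endothelium carry the recombined alleles too. Cells were digested with transcription inhibitors and separated with CD146 microbeads, and the labels place every library in batch 1. The background was mixed, and the sexes were analysed together.

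Mmp proteins are zinc-dependent enzymes that cut collagens and other matrix proteins, and the membrane-type members are held at the cell surface. Many ADAM proteins release the outer part of membrane proteins, among them Notch receptors, cytokines and adhesion molecules, whereas some lack a working catalytic site and act in adhesion. ADAMTS enzymes are secreted and cut proteoglycans, procollagens and von Willebrand factor, and ADAMTS-like proteins resemble them but have no protease domain. Timp proteins block the active site of these enzymes. In the liver these genes are known from stellate and other mesenchymal cells, endothelial cells, macrophages and hepatocytes.

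The fractions were checked by markers. The 7 endothelial markers summed to 783 to 1643 TPM in LSEC libraries and to 22.4 to 57.2 TPM in non-EC libraries. The LSEC fraction was not endothelial alone. The 9 stellate and mesenchymal markers summed to 1266 to 2132 TPM in it, against 28.4 to 115.9 TPM in the non-EC fraction, and the 4 mesothelial markers to 40.7 to 89.4 TPM, against 0.812 to 3.28 TPM. A level in the LSEC fraction therefore belongs to all cells captured with CD146, and fewer cells of a type cannot be told apart from less RNA per cell. LSEC Brg1-ECko replicate 1 stood apart, with 12314 TPM of the hepatoblast gene Afp against at most 3513 TPM in the other LSEC libraries. Whole-gene levels of the targeted genes did not separate the genotypes. Chd4 lay between 168 and 351 TPM over the LSEC libraries and Smarca4, which encodes BRG1, between 99.9 and 161 TPM, and transcripts without the floxed exons count toward both.

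Levels were first described by role. ADAM genes gave the largest sum in LSECs, with 322 to 436 TPM over the 12 libraries. Adam11, Adam22 and Adam23 were set aside as lacking an active site, and all 3 passed. Only these 3 were placed in that class, so that the other 31 ADAM genes can include more without one. Of those 31, 9 passed. Adam10, the main Notch and cadherin sheddase, was the member with the highest mean in both fractions. It ranged from 120 to 179.8 TPM around a median of 150.7 TPM in LSECs and from 60.3 to 169.9 TPM around 145.6 TPM in non-EC cells. Adam17, the TNF-converting enzyme, ranged from 48.0 to 68.5 TPM and from 21.6 to 56.6 TPM in the same order. Both sheddases were thus plentiful in each fraction. Adam19 had a median of 49.3 TPM in LSECs and 0.95 TPM in non-EC cells, and Adam12, which is known from mesenchymal cells, 40.7 and 0.57 TPM. Adam9 had 43.2 and 19.8 TPM, and Adam15 26.9 and 4.92 TPM.

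Of the secreted enzymes, 17 of 19 ADAMTS genes passed. Adamts1 and Adamts9, both proteases of versican and related proteoglycans, had medians of 79.0 and 69.4 TPM in LSECs and 1.79 and 1.37 TPM in non-EC cells. Adamts10, which works with fibrillin, had 18.1 and 4.31 TPM. Adamts3, which activates VEGF-C and processes procollagen, was one of few members with more signal outside the LSEC fraction, with medians of 2.47 TPM in LSECs and 4.02 TPM in non-EC cells.

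Of the Mmp genes, 12 of 23 passed, 5 of 6 membrane-type and 7 of 17 other members. Mmp2, a gelatinase of mesenchymal cells, and Mmp14, the membrane-type enzyme that activates the Mmp2 proenzyme, were the members with the highest means in LSECs after Adam10. Mmp2 ranged from 60.3 to 126.2 TPM in LSECs and from 1.41 to 4.29 TPM in non-EC cells. Mmp14 ranged from 68.8 to 110.8 TPM and from 13.5 to 27.1 TPM. The order was turned for Mmp19, which ranged from 3.61 to 31.8 TPM in LSECs around a median of 7.22 TPM and from 13.1 to 49.8 TPM in non-EC cells around 29.2 TPM. The highest LSEC value of Mmp19 came from LSEC Brg1-ECko replicate 1, the library with high Afp. A cluster of 10 Mmp genes on chromosome 9 (GRCm39, chr9:7272514-7699587) was almost without signal. Only the neutrophil collagenase Mmp8 passed there, and the highest value of the others was 0.80 TPM of Mmp12.

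The inhibitors were led by Timp3, which binds to matrix and also blocks several ADAM enzymes. Timp3 ranged from 45.7 to 82.9 TPM in LSECs and from 29.0 to 63.0 TPM in non-EC cells. Timp2 ranged from 34.3 to 61.0 TPM and from 4.54 to 9.75 TPM, and Timp1 from 9.20 to 24.6 TPM and from 2.32 to 4.99 TPM. Timp4 did not pass and stayed at or below 0.25 TPM. The ratio of summed Mmp to summed Timp was 1.69 to 2.31 in the 12 LSEC libraries and 0.68 to 2.01 in the 12 non-EC libraries, 5 of which were below 1. The ratio in non-EC controls was 0.727 ± 0.0687 (SD, n = 3), the lowest of the 8 groups, and in LSEC controls it was 2.11 ± 0.0837 (SD, n = 3).

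**Figure D1:**
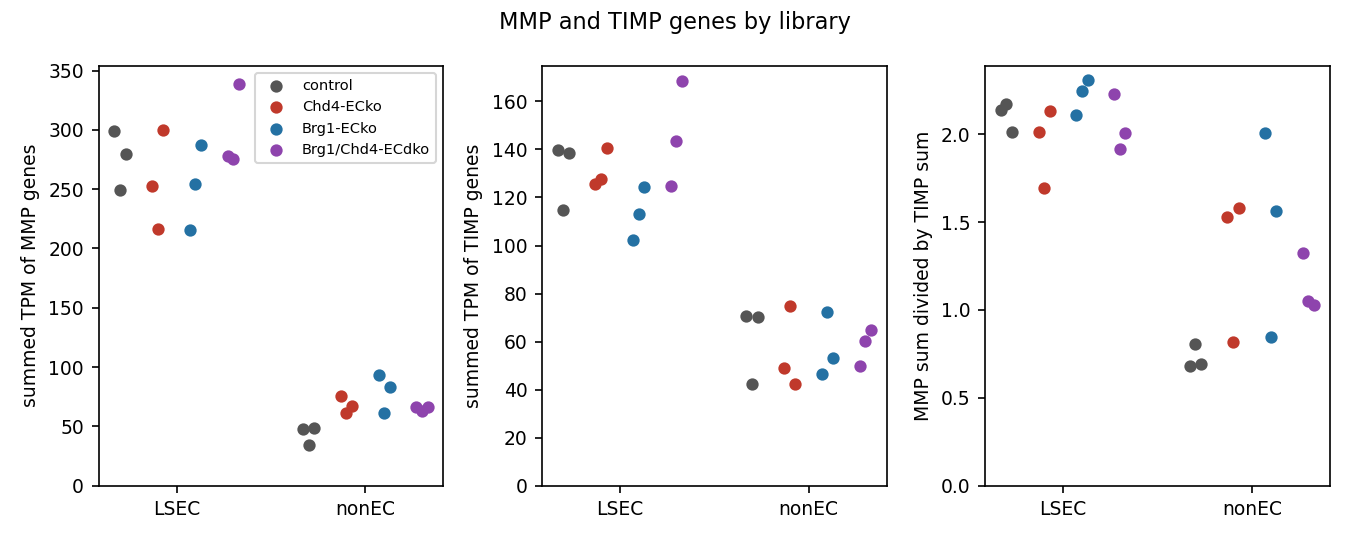
Summed TPM of Mmp genes, of Timp genes and their ratio, with 1 point per library, 3 libraries per genotype, in LSEC and non-EC (nonEC) fractions. Ratios in LSECs stay between 1.69 and 2.31, and the 3 non-EC controls lie between 0.682 and 0.806.

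Control LSECs and control non-EC cells were compared in a limma model of all 24 libraries. Of 48 members, 36 passed an adjusted p under 0.05 with a log2 fold change above 1 in size, 35 higher in LSECs and 1 lower. Over all 13775 genes tested 32.7% passed, 19.4% higher and 13.3% lower. Of these 48, 25 did not reach the filter in the non-EC fraction. They entered through the fraction where they are high, so that their differences are given as a description of levels with no p. Of the 23 members that reached the filter in both fractions, 14 passed higher in LSECs and 1 lower, where 14.6% and 14.7% of the 11955 genes of that kind did.

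Among these 23 the widest differences were those of Adamts9 (log2 fold change 5.04, SE 0.28, limma adjusted p = 2.11e-12), Mmp2 (4.98, SE 0.22, adjusted p = 1.01e-13), Adamts1 (4.97, SE 0.22, adjusted p = 1.14e-13) and Adam19 (4.72, SE 0.22, adjusted p = 2.46e-13). The membrane-type Mmp15 (3.31) and Mmp14 (2.70) were higher in LSECs, as were Mmp11 (2.45), the cartilage matrix protease Adamts12 (2.26), Adamts10 (1.95), Adam15 (2.55) and Adam9 (1.21). Of the inhibitors, Timp2 was higher in LSECs by 2.81 and Timp1 by 1.999, whereas Timp3 had 0.37 (adjusted p = 0.20). Mmp19 was the member that was lower in LSECs (-1.47, SE 0.36, adjusted p = 0.00112). Adamts3 was also lower by the adjusted p but under the fold threshold (-0.93, adjusted p = 3.47e-04). Adam10 had -0.24 (adjusted p = 0.31) and Adam17 0.15 (adjusted p = 0.53). Mmp8 was higher by 1.09 (adjusted p = 0.0117), and that call was lost without LSEC control replicate 3 (0.0673) or non-EC control replicate 2 (0.0568) and with quantile normalization (a difference of 0.69, 0.110).

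Of the members that entered through LSECs, Adam12 differed by 4.98 on the log2 scale, Mmp23 by 3.45 and Mmp16 by 3.33. The procollagen N-proteinase Adamts2 had 3.08, the cartilage matrix protease Adamts7 2.95, and the aggrecanases Adamts15, Adamts5 and Adamts4 2.60, 2.23 and 1.97. Adamts19 had 2.67, Mmp28 2.24, Adamts17 2.09, Adamts18 1.88, Adamtsl2 1.78, Adamtsl3 1.78 and Adam23 1.56. The smallest differences past the fold threshold, from 1.06 to 1.28, were those of Adam22, Adamtsl1, Mmp17, Mmp25, Adamts16 and Adamts13, which cuts von Willebrand factor and is known from hepatic stellate cells. With quantile normalization these 6 fell to between 0.52 and 0.66, under the threshold. The stellate and mesenchymal markers differed between the fractions in the same direction as the members that were higher in LSECs, and their part in the result was not tested.

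**Figure D2:**
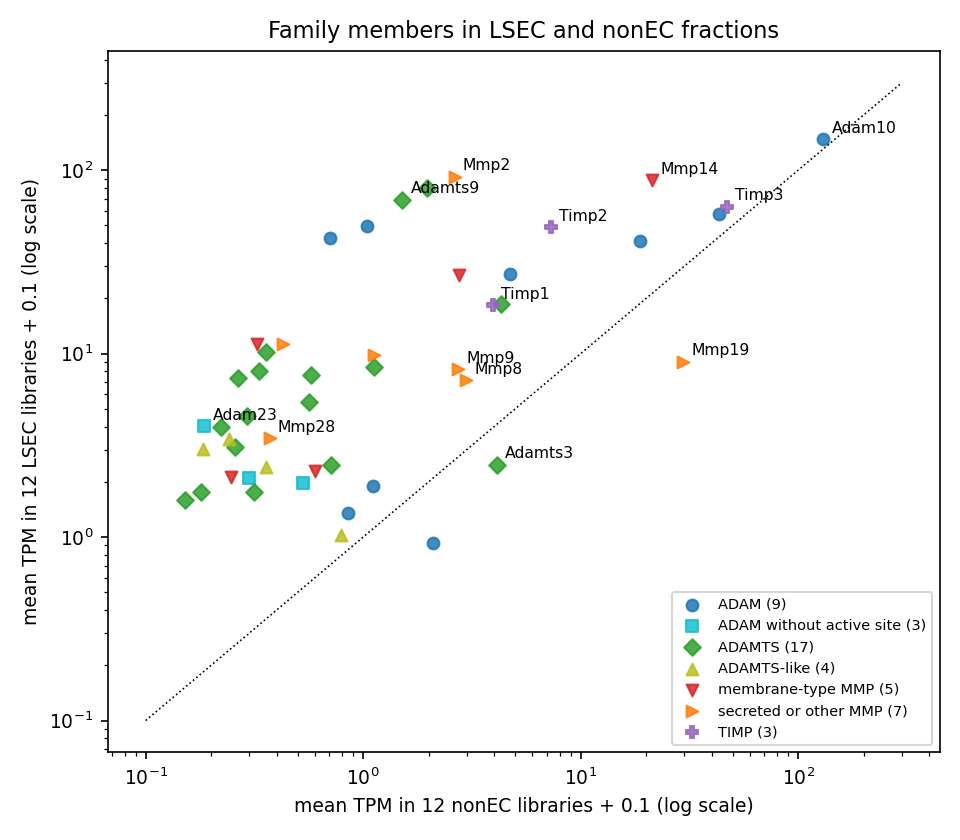
Mean TPM of each of the 48 members over 12 non-EC (nonEC) and 12 LSEC libraries, on log axes after adding 0.1, by class with the number of members in brackets; the dotted line marks equal levels. Most members lie above the line, and Mmp19, Adamts3 and Adam32 lie below it.

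Chd4-ECko LSECs were compared with control LSECs next. Adam23 and Mmp9 were higher, and the other 46 members did not pass. Over all 13444 genes tested 0.521% passed, and 5 of 48 members had an unadjusted p under 0.05 against 6.49% of all genes. The median log2 fold change of the members was 0.01, as was that of all genes tested.

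Adam23 encodes an ADAM protein without a working active site that binds integrins and the neuronal protein LGI1. The gene lies on chromosome 1 (GRCm39, chr1:63484875-63635436, plus strand). In control LSECs it measured 2.28, 2.03 and 2.15 TPM, and in Chd4-ECko LSECs 7.31, 7.32 and 8.87 TPM. All 3 Chd4-ECko libraries were above all controls, with a gap wider than the spread within either group. Means were 2.15 ± 0.129 TPM and 7.83 ± 0.898 TPM (SD, n = 3 each), and the log2 fold change of TPM + 1 was 1.48 (SE 0.21, limma adjusted p = 0.00337). It kept that side of the threshold in every alternative that could test it, with adjusted p from 0.00185 to 0.0353; a filter on a mean of 5 TPM removed the gene.

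In Brg1-ECko LSECs Adam23 measured 1.49, 1.12 and 1.74 TPM, below all controls, but the difference did not pass (log2 fold change -0.37, with adjusted p from 0.366 to 1.00 over the alternatives). In Brg1/Chd4-ECdko LSECs it measured 3.02, 3.91 and 6.003 TPM. These lie between the other groups, above every control and below every Chd4-ECko library. Neither side of that position passed, since Brg1/Chd4-ECdko differed from control by 0.71 (SE 0.21, limma adjusted p = 0.16) and from Chd4-ECko by -0.77 (SE 0.21, adjusted p = 0.37). Against Brg1-ECko the difference was 1.09 (SE 0.21, adjusted p = 0.062). Without Brg1/Chd4-ECdko replicate 1 it was 1.27 with an adjusted p of 0.0374, the lowest over the alternatives, and the highest was 0.359. In non-EC cells Adam23 did not exceed 0.183 TPM in any library and was listed at 0 in 1 control.

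The 250 bases before the annotated start are printed for the 4 members that passed the adjusted p in a mutant and have an entry in the RefSeq promoter table, so that the start regions of genes that differed can be compared. They were read from GRCm39 before the GENCODE start, 5′ to 3′ on the strand of the gene, and capitals mark CG dinucleotides. Adam23 lies at chr1:63484625-63484874 on the plus strand, Mmp14 at chr14:54668628-54668877 on the plus strand, Mmp15 at chr8:96078645-96078894 on the plus strand and Mmp28 at chr11:83353987-83354236 on the minus strand.
Adam23: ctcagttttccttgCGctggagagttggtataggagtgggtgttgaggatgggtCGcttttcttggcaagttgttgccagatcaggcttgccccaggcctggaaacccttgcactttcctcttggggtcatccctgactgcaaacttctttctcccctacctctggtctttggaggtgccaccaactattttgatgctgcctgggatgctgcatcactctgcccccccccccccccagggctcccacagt
Mmp14: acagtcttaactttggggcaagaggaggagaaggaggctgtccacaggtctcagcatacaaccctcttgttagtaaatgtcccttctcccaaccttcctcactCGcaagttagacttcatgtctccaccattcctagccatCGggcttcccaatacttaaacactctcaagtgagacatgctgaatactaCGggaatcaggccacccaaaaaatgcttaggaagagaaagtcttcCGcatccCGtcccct
Mmp15: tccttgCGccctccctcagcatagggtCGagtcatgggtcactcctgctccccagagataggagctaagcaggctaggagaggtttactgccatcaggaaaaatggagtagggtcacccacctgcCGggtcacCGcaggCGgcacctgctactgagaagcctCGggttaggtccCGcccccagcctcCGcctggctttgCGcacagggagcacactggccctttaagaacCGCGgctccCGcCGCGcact
Mmp28: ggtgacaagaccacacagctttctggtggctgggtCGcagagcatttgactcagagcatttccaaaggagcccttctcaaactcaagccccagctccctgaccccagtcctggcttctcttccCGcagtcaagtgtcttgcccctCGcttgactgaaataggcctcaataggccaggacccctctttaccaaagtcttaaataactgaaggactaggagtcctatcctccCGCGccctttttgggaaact

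The Adam23 stretch holds 2 CG dinucleotides, and 18.4% of 21770 protein-coding genes have fewer in the same window. Mmp14 and Mmp28 hold 5 each and Mmp15 holds 14. Over all these genes the median is 6, and 92.0% have at least 1. The count depends on which start is used. RefSeq places the start of Adam23 175 bases farther into the gene, and the 250 bases before that start hold 27, more than 91.8% of the RefSeq table. The same change gives 10 for Mmp14, 15 for Mmp28 and 14 for Mmp15. Both windows were tried, and the one before the GENCODE start is printed because the other runs into annotated transcript. The position of Adam23 among promoters turns over between the windows, so that no CG content is assigned to it here.

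Mmp9 encodes gelatinase B, an enzyme known from macrophages and neutrophils (GRCm39, chr2:164780439-164797771). It measured 2.43, 1.32 and 4.46 TPM in control LSECs and 6.0005, 11.8 and 20.2 TPM in Chd4-ECko LSECs. The groups did not overlap, but the 3 Chd4-ECko libraries were spread over a wide range, with means of 2.74 ± 1.59 TPM and 12.7 ± 7.15 TPM (SD, n = 3 each). The log2 fold change was 1.81 (SE 0.34, limma adjusted p = 0.0296). The call was lost without control replicate 1 (adjusted p = 0.0997), control replicate 2 (0.142), Chd4-ECko replicate 2 (0.134) or Chd4-ECko replicate 3 (0.172), and with no filter on low values (0.077) or quantile normalization (0.058). Over all alternatives the fold change stayed between 1.43 and 2.23 and the adjusted p between 0.00338 and 0.172.

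Macrophage markers moved with the same comparison. All 8 of them had a higher mean log2 level in Chd4-ECko LSECs, 1 passed the test, and their sum was 671 to 1068 TPM against 484 to 611 TPM in controls. Adgre1 measured 29.2, 44.3 and 55.6 TPM in the Chd4-ECko libraries in the order given for Mmp9, against 19.8, 16.1 and 25.0 TPM in controls. Granulocyte markers summed to 136 to 690 TPM in Chd4-ECko and 432 to 1147 TPM in control LSECs. The part of either cell type in the Mmp9 result was not tested. For Adam23, the 7 neuronal and glial markers summed to 27.6 to 31.8 TPM in Chd4-ECko and 31.6 to 38.9 TPM in control LSECs. Of these markers 4 had enough signal to enter the test, and the part of such cells in the Adam23 result was not tested.

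In Brg1/Chd4-ECdko LSECs Mmp9 measured 11.1, 11.6 and 12.2 TPM, close together and above all controls. The log2 fold change against control was 1.84 (SE 0.34, limma adjusted p = 0.0234), and Mmp9 was the 1 member of 48 that passed, where 0.565% of all genes did. The call was lost without control replicate 1 (adjusted p = 0.0812) or 2 (0.113) and without any one of the Brg1/Chd4-ECdko replicates (0.0648, 0.0801 and 0.128), and with no filter (0.0579) or quantile normalization (0.0685), with a range from 0.00117 to 0.128. Macrophage markers summed to 530 to 806 TPM in these libraries. Brg1/Chd4-ECdko and Chd4-ECko are each compared with the same 3 controls, so that their Mmp9 values are not independent. In Brg1-ECko LSECs Mmp9 measured 6.41, 5.16 and 5.29 TPM, above all controls, with a fold change of 0.91 that did not pass (adjusted p = 0.43).

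**Figure D3:**
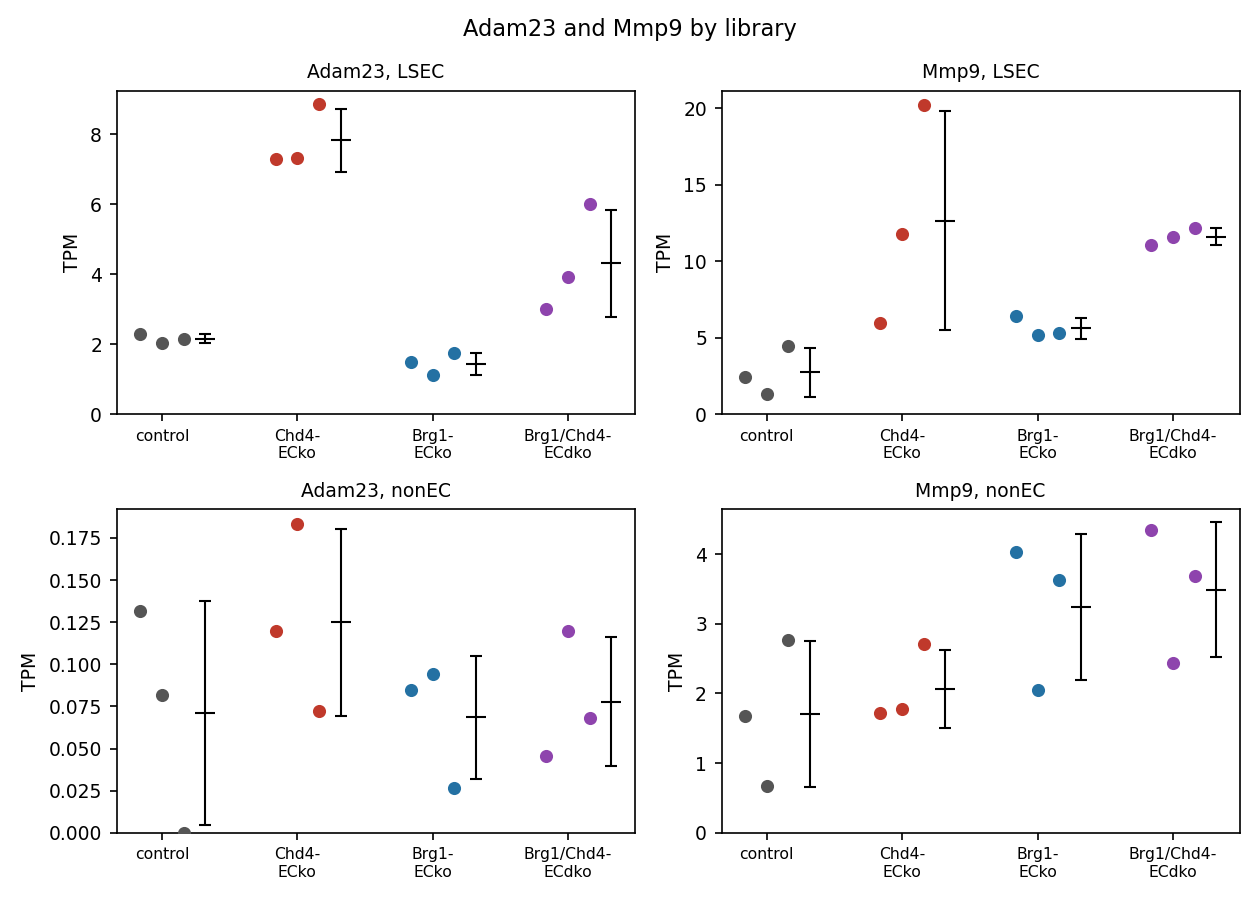
TPM of Adam23 and Mmp9 in each LSEC library (top) and non-EC (nonEC) library (bottom), 3 points per genotype with the mean and SD beside them; the vertical scales differ. Adam23 reaches 7.31 to 8.87 TPM in Chd4-ECko LSECs and stays at or below 0.183 TPM in non-EC cells.

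Mmp28, or epilysin, had the only adjusted p under 0.05 among members that were lower in mutant LSECs. It measured 5.68, 4.61 and 4.99 TPM in controls, 3.42, 3.03 and 3.14 TPM in Chd4-ECko LSECs. Brg1-ECko LSECs held 2.05, 2.60 and 3.23 TPM, and Brg1/Chd4-ECdko LSECs held 2.26, 2.46 and 2.79 TPM. Every mutant library was below every control. Brg1/Chd4-ECdko had a log2 fold change of -0.80 (SE 0.17, limma adjusted p = 0.0472, an adjusted p under 0.05 as 0.87% of all genes had), below the fold threshold, and -0.53 (adjusted p = 0.30) in Chd4-ECko and -0.76 (adjusted p = 0.20) in Brg1-ECko. The adjusted p in Brg1/Chd4-ECdko rose above 0.05 without any single library of the 2 groups, from 0.112 to 0.191, and ran from 0.0109 to 0.191 over all alternatives. Mmp28 shares 1414 bases with the opposite-strand gene 1700020L24Rik, and whether counting used the strand is not given in the sources used here.

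Other members with an unadjusted p under 0.05 did not pass. In Chd4-ECko LSECs Mmp23 measured 8.89, 6.92 and 10.4 TPM against 14.1, 13.04 and 15.6 TPM in controls (log2 fold change -0.66, limma adjusted p = 0.65), and Mmp8 2.26, 6.26 and 3.37 TPM against 8.70, 5.50 and 11.7 TPM (-0.98, adjusted p = 0.31). The Mmp8 groups overlapped and the Mmp23 groups did not. In Brg1-ECko LSECs no member passed, where 0.0149% of all genes did, and 5 members had an unadjusted p under 0.05 in limma, against 9.68% of all genes. Besides Mmp9 and Mmp28 these were Adamts4, an aggrecanase (0.46, adjusted p = 0.43), Adam15 (-0.42, adjusted p = 0.43) and Mmp19 (1.01, adjusted p = 0.45). The Mmp19 value rested on Brg1-ECko replicate 1, with 31.8 TPM against 7.13 and 7.80 TPM in the other libraries of the group, and was 0.36 without it. In Brg1/Chd4-ECdko LSECs Adam17 (0.37, adjusted p = 0.20) and Adamts12 (0.50, adjusted p = 0.32) had an unadjusted p under 0.05. Of the comparisons between mutants, none of 48 members passed for Brg1/Chd4-ECdko against Chd4-ECko or against Brg1-ECko, where 0.0372% and 0.0967% of all genes did, and 5 and 6 members had an unadjusted p under 0.05 in limma, against 10.4% and 6.1% of all genes. The 3 Timp genes moved by at most 0.29 in size against control in any LSEC mutant.

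**Figure D4:**
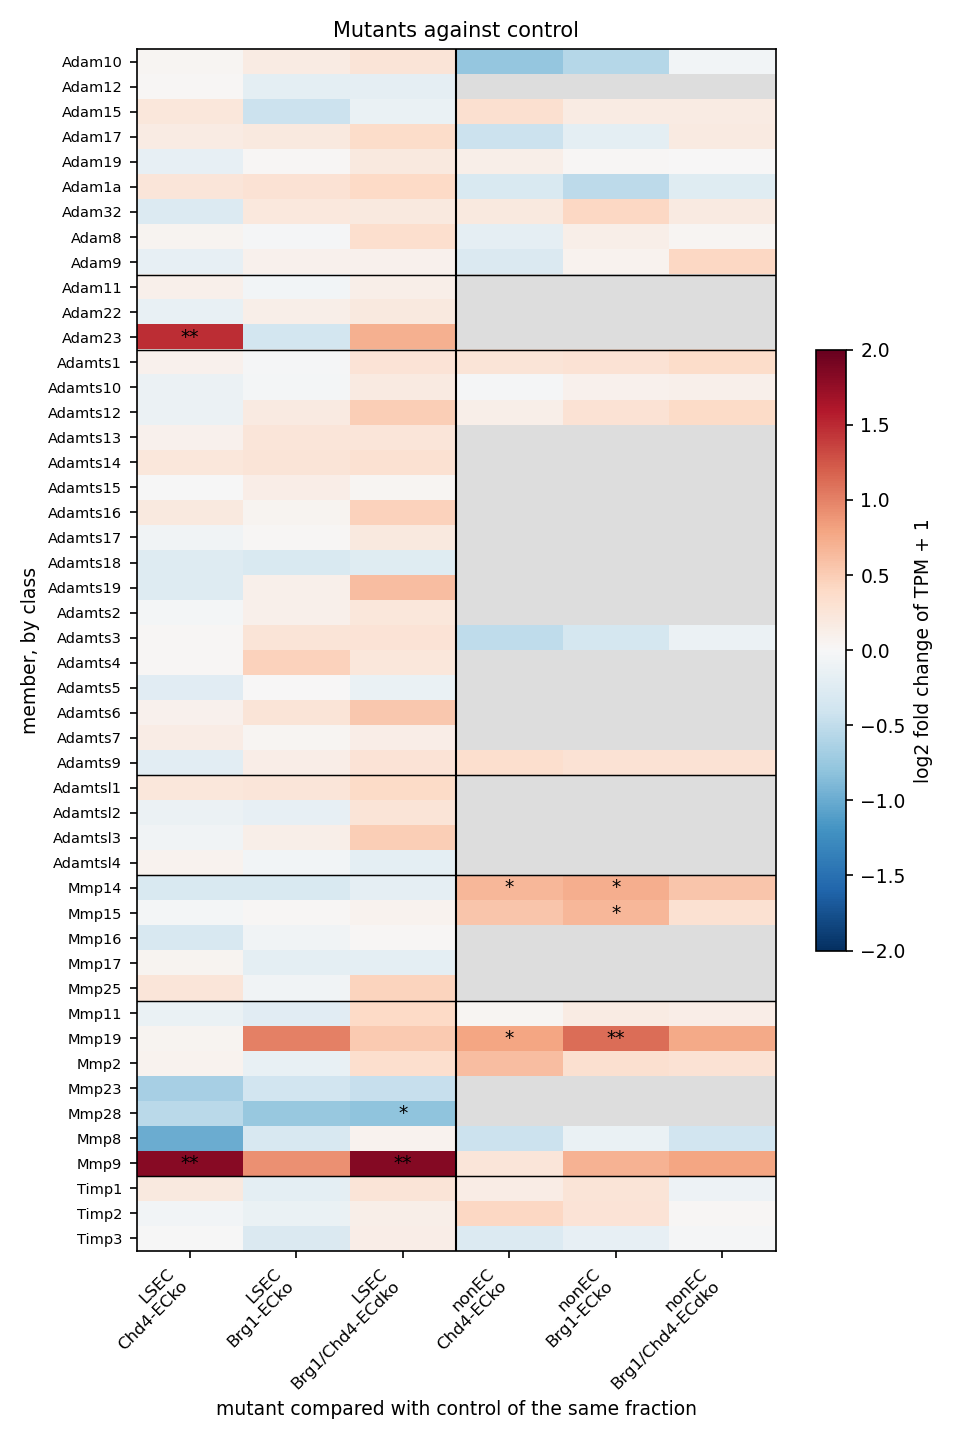
Log2 fold change of TPM + 1 for 48 members (rows, by class) in 3 mutants against control in LSECs and in non-EC (nonEC) cells; 1 star marks an adjusted p under 0.05, 2 stars also a fold change above 1 in size, and grey marks genes not tested. Stars fall on Adam23, Mmp9 and Mmp28 in LSECs and on Mmp14, Mmp15 and Mmp19 in non-EC cells.

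Non-EC cells include hepatoblasts and blood cells, and Cre was not directed to them apart from the descendants of endothelium. In Brg1-ECko non-EC cells Mmp19 rose, and Mmp14 and Mmp15 were higher by the adjusted p alone. These 3 were 3 of 23 members with an adjusted p under 0.05, where 11.7% of all genes had one, and 1 of 23 was past the fold threshold too, where 1.37% of all genes were. Mmp19, a secreted enzyme of basement membrane proteins (GRCm39, chr10:128626773-128636695), measured 18.7, 13.1 and 21.1 TPM in control and 49.8, 28.3 and 40.8 TPM in Brg1-ECko non-EC cells. The groups did not overlap, and the log2 fold change was 1.11 (SE 0.21, limma adjusted p = 0.00652). It fell below the fold threshold without control replicate 2 (0.92, adjusted p = 0.028) or Brg1-ECko replicate 1 (0.93, adjusted p = 0.0326), while the adjusted p stayed under 0.05 in all alternatives run. In Chd4-ECko non-EC cells Mmp19 measured 35.7, 28.8 and 28.1 TPM (0.79, SE 0.21, adjusted p = 0.0382), and in Brg1/Chd4-ECdko 29.5, 30.2 and 30.1 TPM (0.76, adjusted p = 0.12). The Chd4-ECko adjusted p ran from 0.0111 to 0.12 over the alternatives and passed 0.05 without control replicate 1 (0.0821) or 2 (0.0916) or without Chd4-ECko replicate 2 (0.085) or 3 (0.0798). All 9923 bases of Mmp19 lie within the opposite-strand gene Tmem198b, so that the reads of these genes cannot be told apart if strand was not used.

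Mmp14 measured 16.9, 13.6 and 13.5 TPM in control non-EC cells. It measured 25.8, 21.7 and 23.4 TPM in Chd4-ECko non-EC cells. Brg1-ECko libraries held 27.1, 22.5 and 24.6 TPM, and Brg1/Chd4-ECdko libraries 23.0, 20.6 and 22.6 TPM. All were above every control. Fold changes on the log2 scale were 0.66 in Chd4-ECko (SE 0.12, limma adjusted p = 0.0102), 0.72 in Brg1-ECko (SE 0.12, adjusted p = 0.00361) and 0.56 in Brg1/Chd4-ECdko (SE 0.12, adjusted p = 0.0589). The 3 mutants share these controls. In a model of Chd4-ECko and control libraries alone the adjusted p was 0.0894, against 0.00362 at the lowest. Mmp14 and Mmp19 were the 2 of 23 members with an adjusted p under 0.05 in Chd4-ECko, where 9.48% of all genes had one. None was past the fold threshold, where 0.884% of all genes were, and 6 members had an unadjusted p under 0.05 in limma, against 33.9% of all genes. Mmp15, another membrane-type enzyme, measured 2.17, 1.12 and 2.06 TPM in control and 2.91, 3.23 and 3.88 TPM in Brg1-ECko non-EC cells (0.66, SE 0.19, adjusted p = 0.0433). Its adjusted p was above 0.05 without any single library of the 2 groups, from 0.0517 to 0.147, and was 0.0331 at its lowest. In Chd4-ECko it had 0.56 (adjusted p = 0.072).

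Adam10 had negative values in non-EC cells of both single mutants and did not pass. It measured 169.9, 145 and 165 TPM in control, 153, 87.2 and 60.3 TPM in Chd4-ECko and 114, 96.5 and 111 TPM in Brg1-ECko non-EC cells. Chd4-ECko replicate 1 lay among the controls, while all Brg1-ECko libraries were below them. In Chd4-ECko the log2 difference from control was -0.77 (SE 0.25, limma adjusted p = 0.066) and in Brg1-ECko it was -0.58 (SE 0.25, adjusted p = 0.16). Without Chd4-ECko replicate 1 it was -1.13 with an adjusted p of 0.00146, and over the alternatives the adjusted p ran from 0.00146 to 0.20. In Brg1/Chd4-ECdko the values were 148, 169 and 146 TPM. The share of TPM from mitochondrial genes moved with Adam10. It was 7.37, 3.43 and 2.33% in the Chd4-ECko libraries in the same order, 5.24, 3.04 and 5.51% in Brg1-ECko, 6.17 to 7.69% in controls and 6.43 to 6.65% in Brg1/Chd4-ECdko. With TPM rescaled without these genes the Chd4-ECko value was -0.81 (adjusted p = 0.071), and the part of this share in the Adam10 result was not tested further.

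The remaining members with an unadjusted p under 0.05 in non-EC cells did not pass. They were Mmp2 (0.62, limma adjusted p = 0.09) and Timp2 (0.41, adjusted p = 0.13) in Chd4-ECko, Mmp9 (0.69, adjusted p = 0.16) and Adam1a (-0.53, adjusted p = 0.084) in Brg1-ECko, and Mmp9 (0.78, adjusted p = 0.30) in Brg1/Chd4-ECdko. In that genotype none of 23 members passed, where 0.115% of all genes did, and 3 members had an unadjusted p under 0.05 in limma, against 11.7% of all genes. Hepatoblast markers stood beside these results. Their sum was 15921 to 17755 TPM in control, 23563 to 32688 TPM in Chd4-ECko, 23042 to 34090 TPM in Brg1-ECko and 20274 to 27011 TPM in Brg1/Chd4-ECdko non-EC cells, and all 7 of them had higher mean log2 levels in each mutant. Macrophage markers summed to 94.6 to 212 TPM in control, 172 to 296 TPM in Chd4-ECko and 193 to 270 TPM in Brg1-ECko. Stellate and mesenchymal markers, whose cells sit in the fraction with far more Mmp14, Mmp15 and Mmp2, summed to 28.4 to 67.1 TPM in control, 53.7 to 115.9 TPM in Chd4-ECko, 50.7 to 82.7 TPM in Brg1-ECko and 47.7 to 67.8 TPM in Brg1/Chd4-ECdko, and all 8 tested had higher mean log2 levels in each mutant. Endothelial markers summed to 22.4 to 40.5 TPM in control, 28.1 to 37.7 TPM in Chd4-ECko, 36.4 to 57.2 TPM in Brg1-ECko and 39.4 to 46.4 TPM in Brg1/Chd4-ECdko. The part of these cells in the Mmp19, Mmp14, Mmp15 and Mmp2 results was not tested.

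**Figure D5:**
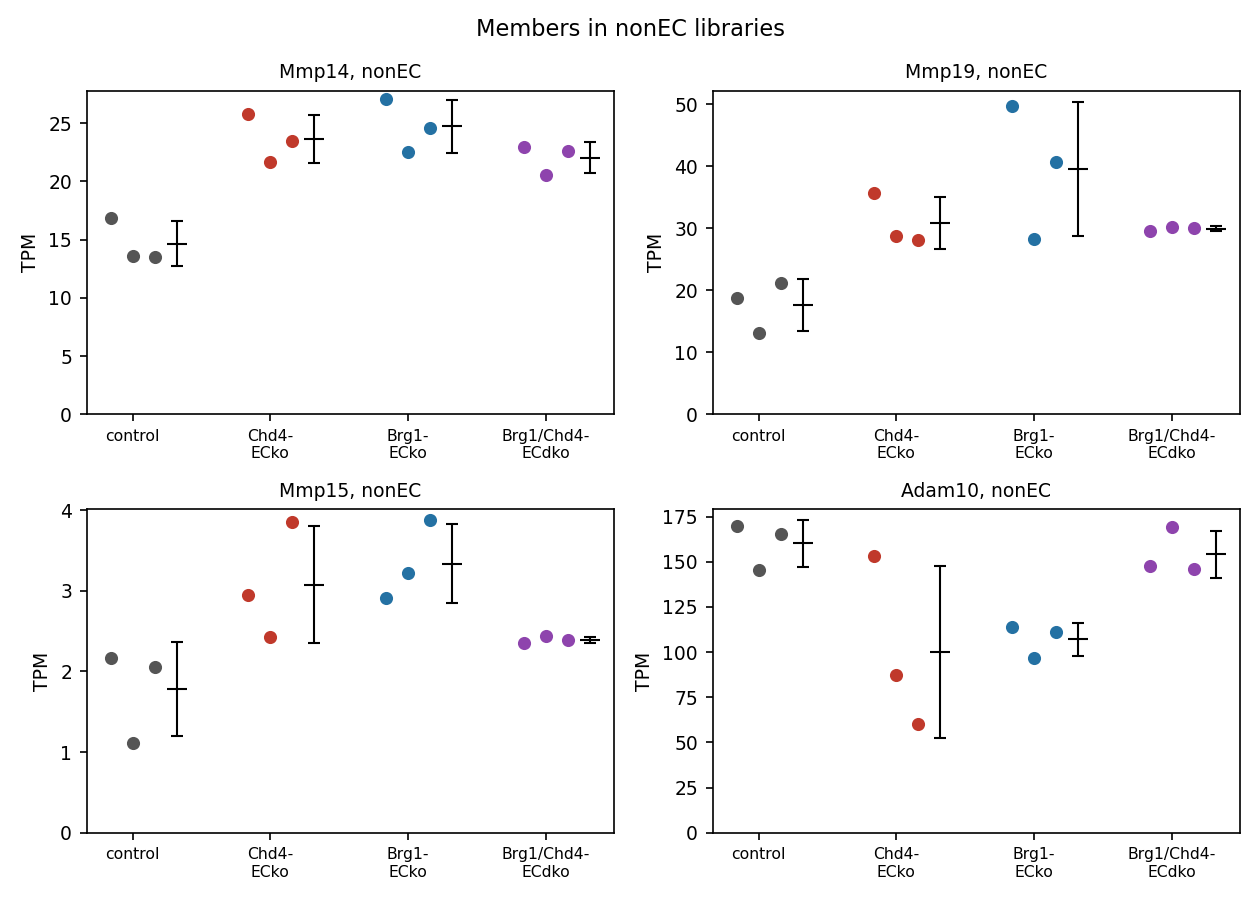
TPM of Mmp14, Mmp19, Mmp15 and Adam10 in each non-EC (nonEC) library, 3 points per genotype with the mean and SD beside them; the vertical scales differ. Mmp14 lies between 20.6 and 27.1 TPM in mutants and between 13.5 and 16.9 TPM in controls.

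Whether a genotype changed the fractions differently was tested as an interaction in the model of 24 libraries. For Chd4-ECko, where 0.69% of all genes passed, Adam23 was the 1 member past both thresholds, with a value of 1.41. It entered this model through LSECs alone and stayed at or below 0.183 TPM in non-EC cells. The value therefore restates its LSEC difference, and no p is given for it. Mmp14 had an interaction of -0.96 (SE 0.21, adjusted p = 0.0286), an adjusted p under 0.05 as 1.02% of all genes had. It was above all controls in Chd4-ECko non-EC cells, whereas Chd4-ECko and control LSECs overlapped. In LSECs it measured 104, 99.7 and 96.6 TPM in control and 75.8, 71.7 and 97.1 TPM in Chd4-ECko libraries. That adjusted p rose above 0.05 without any single LSEC control (0.0571 to 0.0749), Chd4-ECko LSEC replicate 1 (0.0574) or 2 (0.0831), non-EC control replicate 3 (0.0775) or Chd4-ECko non-EC replicate 3 (0.0662), and was 0.00803 at its lowest. Mmp9 had 1.57 (SE 0.49, adjusted p = 0.12), and with the replicate number as a block its adjusted p was 0.0313, the lowest over the alternatives, where the highest was 0.250.

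For Brg1-ECko, Mmp14 passed with -1.03 (SE 0.21, limma adjusted p = 0.0165), where 0.639% of all genes passed. In Brg1-ECko LSECs it measured 68.8, 80.1 and 94.2 TPM, below every LSEC control, while Brg1-ECko non-EC libraries lay above every non-EC control. Only the non-EC difference had an adjusted p under 0.05. The LSEC difference did not, with a log2 fold change from -0.42 to -0.20 and a limma adjusted p of at least 0.312 over the alternatives. The 7 endothelial markers summed to 783 to 1214 TPM in these LSEC libraries and to 1241 to 1643 TPM in LSEC controls, without overlap, and their part in the Mmp14, Adam23 and Mmp28 values of Brg1-ECko LSECs was not tested. The call was lost without Brg1-ECko LSEC replicate 1 (-0.92, adjusted p = 0.0444), non-EC control replicate 2 (-0.98, 0.055) or 3 (-0.98, 0.0463) or Brg1-ECko non-EC replicate 1 (-0.97, 0.0601), with an adjusted p of 0.00422 at the lowest. For Brg1/Chd4-ECdko no member passed, where 0.0581% of all genes did, and 6 members had an unadjusted p under 0.05 in limma, against 7.57% of all genes.

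Genes that act with the family were taken from 4 lists. The lists held 19 regulators (convertases, tetraspanins and inhibitors outside the Timp genes), 7 astacin proteases and procollagen C-proteinase enhancers, 40 membrane proteins that ADAM enzymes release and 16 substrates and partners of ADAMTS enzymes. In LSECs none of the tested genes of the 4 lists had an adjusted p under 0.05 in limma in any mutant against control, where 0.707%, 0.0223% and 0.87% of all genes had one in the same order as in the plot of fold changes, with Chd4-ECko first and Brg1/Chd4-ECdko last. In Chd4-ECko non-EC cells, where 9.48% of all genes had an adjusted p under 0.05, 1 of 16 tested regulators was higher, the convertase Furin (log2 fold change 0.65, limma adjusted p = 0.0337), as were 2 of 3 astacins and enhancers, Bmp1 (0.84) and Pcolce (0.78), which together mature fibrillar collagen. Of 31 tested shed proteins 2 were higher, Ephb4 (1.04, adjusted p = 0.0126) and Tnfrsf1a (0.60). Of 10 tested ADAMTS substrates 1 was higher, the proteoglycan Bgn (0.76).

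In Brg1-ECko non-EC cells the counts were 1 of 16, 3 of 3, 4 of 31 and 2 of 10, all higher, where 11.7% of all genes had an adjusted p under 0.05. In both genotypes the counts of regulators and shed proteins are near or below those shares. The genes were Furin (0.75), Bmp1 (1.00), Pcolce (0.86), Pcolce2 (0.88), Ephb4 (1.07, limma adjusted p = 0.00652), Tnfrsf1a (0.66), F11r (0.62), Icam1 (0.88), Bgn (0.71) and Vcan (0.96). Ephb4 was past the fold threshold in both genotypes, which share their controls. Stellate and mesenchymal markers had higher mean log2 levels in non-EC cells of both genotypes, and their part in these list results was not tested. In Brg1/Chd4-ECdko non-EC cells none had an adjusted p under 0.05, as 0.581% of all genes had. Interactions passed for Cd44 (1.15, adjusted p = 0.046) and Ephb4 (-1.28, adjusted p = 0.0146) in Chd4-ECko, and in Brg1-ECko for Ephb4 (-1.35), Pcolce (-1.20), Icam1 (-1.14) and Lyve1 (-1.96), each with a smaller value in LSECs.

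The 37 named genes that did not pass were accounted for by level. Of these, 34 never reached 1 TPM and 3 did so in 1 library, namely Adam33 with 1.12 TPM, Adamts8 with 1.36 TPM and Adamts20 with 1.39 TPM. In all 24 libraries 18 were listed at 0. Just inside the threshold were Adamtsl4, with 1 TPM or more in 5 libraries and a highest value of 1.37 TPM, and Adam1a and Adamts16, each in 9 libraries. Most of the genes that did not pass were ADAM genes, 22 of the 31 other than Adam11, Adam22 and Adam23.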

How the data were processed

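Poly-A RNA was sequenced from both fractions of livers at E12.5. After trimming of guanine repeats, the authors used CLC Genomics Workbench with GRCm39 and deposited the result as TPM. Since each library adds up to 1000000, the depth of each library is unknown and no interval of counting error is given. The 8 deposited columns of group means were not used, and 0 columns belonged to other samples. Whether counting used the strand is not given in the sources used here.

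Values were tested as log2(TPM + 1) with limma 3.58.1 in R 4.3.3, with variances moderated by a trend. One model was fitted per fraction (12 libraries), and one of 24 libraries served the comparison of fractions and the interactions. Genes with at least 1 TPM in 3 libraries of a model entered. A gene passed where its log2 fold change exceeded 1 in either direction at a two-sided, Benjamini-Hochberg adjusted p under 0.05 over all genes tested. These fold changes understate the change of low genes. The study describes in vivo replicates as single embryos, and the labels do not say which embryo gave which library. The model was tested on artificial data with 200 changed genes. It recovered 98% of them for Chd4-ECko against control in LSECs and 94% for Brg1-ECko against control in non-EC cells. It recovered 97% between control fractions and 91% for the Chd4-ECko interaction. Recovery at the levels and fold changes of the members was not tested.

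Values are given for members that passed in any comparison, members with an unadjusted p under 0.05 in a mutant against control, the 10 highest in each fraction, the Timp genes and Adam23. Members and lists, the 4 pathway lists and 9 marker lists included, were chosen with earlier results of these data known. A result from the list of shed proteins is not reported here. Alternatives changed the pseudocount (0.1 TPM), the filter, the scaling, the trend, the block, the threshold and the libraries. LSEC and non-EC libraries that share a genotype and number deviated together in all 12 pairs (correlation 0.124 to 0.411). The replicate number in the labels was therefore used as a block in an alternative to the 24-library models. The p values reported from those models are without the block and treat the libraries as independent. Positions and start regions came from GENCODE vM39 on GRCm39. By symbol, 30 of 48 members matched the RefSeq promoters (GRCm38.p6) behind the second window. Figures were drawn in python 3.11.15 with matplotlib 3.10.9.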

Additional observations from a re-analysis of the deposited data

Results flagged for a closer look

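Mmp14 had genotype effects that differed between LSECs and non-EC cells by the interaction test in limma, with -0.96 for Chd4-ECko (adjusted p = 0.0286) and -1.03 for Brg1-ECko (adjusted p = 0.0165), and both share the control libraries. In non-EC cells 3 of 3 libraries of each of these genotypes were above all controls, and in LSECs 3 of 3 Brg1-ECko libraries were below all controls. That LSEC difference did not pass, with a limma adjusted p of at least 0.312 over the alternatives. With the replicate number as a block, Mmp9 was past the thresholds for Chd4-ECko too (1.57, adjusted p = 0.0313, against 0.12 without the block). Adam23 had a Chd4-ECko value of 1.41 in the same comparison, but its non-EC level was at most 0.183 TPM in every library, so that this value restates the LSEC difference and is not a test between the fractions.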

How the results depend on the processing

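In LSECs, the 2 members that passed in Chd4-ECko became 1 with no filter (Adam23), a mean of at least 5 TPM (Mmp9) or quantile normalization (Adam23), and 1 to 2 with a library left out. The 1 member in Brg1/Chd4-ECdko became 0 with no filter, 2 without the fold threshold and 0 to 1 with a library left out, and under quantile normalization Mmp28 (-1.03) passed in place of Mmp9. Against Chd4-ECko, 0 became 1 (Mmp8) in a model of the compared groups alone. Against Brg1-ECko, 0 became 1 (Adam23) without the trend or with the replicate block (adjusted p = 0.0377), and 0 to 1 with a library left out. In non-EC cells, 0 became 2 in Chd4-ECko and 1 became 3 in Brg1-ECko without the fold threshold, and both were 0 to 1 with a library left out. Between control fractions 36 became 17 with a mean of at least 5 TPM, which removes low members, and 36 to 38 with a library left out. With quantile normalization it became 31, without Adam22, Adamts13, Adamts16, Adamtsl1, Mmp17, Mmp25 and Mmp8 and with Adamts3 (-1.46) and Adam32. The Chd4-ECko interaction, with 1 (Adam23), gave 0 members with a pseudocount of 0.1 TPM or a mean of at least 5 TPM, 2 with quantile normalization, the replicate block or no fold threshold, and 1 to 2 with a library left out. The Brg1-ECko interaction gave 0 to 1 with a library left out, and the Brg1/Chd4-ECdko interaction 1 (Mmp28) with quantile normalization. The counts between control fractions include members that entered through LSECs alone. All counts under changed settings are given without the share of all genes in the same setting. They therefore cannot be read as changes of the family alone. Where no value bears on a change, the cause was not tested.

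Signs turned only for differences that had not passed and for Adamtsl4 between control fractions (-0.25 with quantile normalization). Mmp9 between Brg1/Chd4-ECdko and Chd4-ECko LSECs was -0.11 with quantile normalization, -0.026 without mitochondrial genes and -0.39 to 0.41 with a library left out. With a library left out, Mmp19 ran from -0.20 to 0.22 in Chd4-ECko LSECs, and Mmp14 from -0.051 to 0.25 between Brg1/Chd4-ECdko and Chd4-ECko LSECs. Between Brg1/Chd4-ECdko and Brg1-ECko LSECs the ranges were -0.043 to 0.24 for Mmp14, -0.85 to 0.16 for Mmp19 and -0.16 to 0.077 for Mmp28. Mmp9 ran from -0.067 to 0.52 in Chd4-ECko non-EC cells, and in the Brg1-ECko interaction Mmp19 ran from -0.75 to 0.25 and Mmp9 from -0.084 to 0.53.

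Quantile normalization shifted the median of all genes by -0.18 in Brg1/Chd4-ECdko LSECs against control, and leaving out mitochondrial genes shifted it by 0.26 between control fractions. In the 24-library models the replicate block changed no call but that of Mmp9 in the Chd4-ECko interaction. Within a fraction, 13 of 18 LSEC and 10 of 18 non-EC pairs of libraries with the same number correlated above 0.1. Of pairs with different numbers, 8 of 36 did so in LSECs and 8 of 36 in non-EC cells. The reported models of each fraction hold no block, and a shared effect of the number was not tested further. A model without LSEC Brg1-ECko replicate 1 was added after seeing the data and left the member counts of the other comparisons at their reported values. The unknown depth of each library limits what low members can show.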
